A study of Sus scrofa with 9 samples.

Results

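miR-6529 is a microRNA (miRNA) whose hairpin precursor gives products from both of its sides, the 5p arm and the 3p arm. The members are the 2 arms miR-6529-5p and miR-6529-3p, taken by name out of 100 conserved miRNA arms, and out of 495 arms when the putative new miRNAs of the same study are counted. The libraries hold small RNA of the longissimus dorsi, a large muscle along the spine, taken from female pigs of the Jinhua breed, with no treatment given in the labels. Ages were E90 (fetuses, 90 days into gestation), birth (day 0), 30 days, 180 days and 7 years. There was 1 library each at E90, day 0 and day 30, and there were 3 libraries each at day 180 and 7 years. The study drew on 15 pigs, the sources used here do not say which pigs went into which of the 9 libraries, and p-values below rest on differences among libraries that may be partly technical. The arms were chosen by their copies and ranks in the adult libraries, so differences between early and adult libraries are described here and not tested.

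A miRNA is cut from a folded precursor by the enzymes Drosha and Dicer, which leaves a short duplex of the 5p and the 3p arm. One strand of the duplex is usually kept in an Argonaute protein and the other is mostly degraded, so one arm is often far more abundant. The kept strand finds messenger RNAs mainly through its seed, bases 2 to 8 counted from its 5′ end, and lowers their stability or translation. Bovine bta-mir-6529 was the only counterpart that the deposited table listed for the pig precursor, and 17 of the 69 distinct conserved precursors had a single counterpart. No target or role in muscle is stated for it in the sources used here.

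The precursor lies on chromosome 13 of the pig assembly Sscrofa10 (chr13:149441291-149441369, plus strand, 79 nt). No annotation of this assembly was used here, so whether it lies in a gene is not reported. The nearest other entry of the tables, the putative new PN-149811410-5p, started 370119 bp away, and no other conserved precursor was placed on this chromosome. The precursor is shown because both arms are read from it, with the arms in capitals as in the deposited table, 5′ to 3′ and in DNA letters.
mir-6529 precursor: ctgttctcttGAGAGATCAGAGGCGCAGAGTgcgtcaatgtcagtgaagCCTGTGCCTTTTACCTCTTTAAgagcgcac
The consensus sequences of the arms follow, with the seed in capitals.
miR-6529-5p: gAGAGATCagaggcgcagagt
miR-6529-3p: cCTGTGCCttttacctcttta

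The 5p arm covers positions 11 to 31 of the precursor and the 3p consensus positions 50 to 70. Folding with RNAfold gave a hairpin of -30.1 kcal/mol in which 15 of the 21 bases of the 5p arm paired with the 3p side. Per base this is -0.381 kcal/mol, against a median of -0.41 over the 68 other conserved precursors, of which 41 were more stable per base. The arms are at both ends of the base composition of the table. The 5p arm has 16 purines in 21 bases (76.2%), the highest share of the 100 conserved arms, where the next highest has 75.0% and the median arm 50.0%. The 3p arm has 4 purines in 21 bases (19.0%), the lowest share, where the next lowest has 22.7%. Since the arms pair with each other, these are not separate features. The 5p arm starts with G, as 12 of the 100 conserved arms do, and 40 start with T (U in the RNA). Neither seed occurred in any of the 493 other arms, and no other arm or precursor shared a stretch of 16 bases with either arm.

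The same 21 nt sequence of the 5p arm was the most abundant one in all 9 libraries. Of 24 conserved arms with a sequence in every library, 9 kept 1 main sequence throughout, miR-6529-5p among them. The 3p arm had a main sequence in 6 libraries, in 3 forms that start at the same base and differ at the 3′ end. They are shown because a base at the end of the longest form, in a capital, is not that of the precursor.
3p, 21 nt (day 0, day 30, day 180 replicate 2): cctgtgccttttacctcttta
3p, 22 nt (E90, day 180 replicate 1): cctgtgccttttacctctttaa
3p, 23 nt (7 years replicate 3): cctgtgccttttacctctttaaT
Counted from the first base of the 3p arm, the longest form carried G23T relative to the precursor. Whether this base was added to the RNA or arose in sequencing was not tested.

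In 7 years replicate 3 both arms had a sequence and no copy number. Of the 900 cells of the conserved table, 3 were of this kind. A listed sequence means that the arm was seen, so the missing number is not a measured 0, and levels, ranks and shares of the 5p arm are given for the 8 libraries with a number. At the levels of 7 years replicates 1 and 2, a library of this size would hold 333 and 305 copies.

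Libraries held 3476614 to 12259667 high-quality reads. The conserved arms together had 118550 copies at E90, 74855 at day 0 and 31827 at day 30. They had 30760, 20901 and 20047 copies at day 180, and 9868, 4883 and 10913 at 7 years. A level is given as RPM, which is the copies of an arm per 1000000 high-quality reads, with exact 95% intervals that cover counting error only. Of 7 miRNAs taken as markers of skeletal muscle, 2 had an arm in the tables, miR-1 and miR-208a, summing to at most 25.1 RPM in any library and listed in none at E90, in day 180 replicate 3 and in 7 years replicates 1 and 2, so the tissue could not be checked with them. Of 5 blood markers only miR-223 had an arm, at 0.959 to 7.57 RPM. Of 7 epithelial markers 5 had one, summing to 0.806 to 14.4 RPM, and those of endothelium and smooth muscle had none. Their part in the results was not tested.

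The 5p arm was among the more abundant of the 100 listed conserved arms at every stage. Together these arms held 23512 RPM at E90 and as little as 1162 RPM in 7 years replicate 3. Ranks and shares given here are therefore places within this list and not among all miRNAs of the muscle. The RPM of the 5p arm peaked in the fetal library and was lowest in the pigs of 7 years. It had 1294 copies or 257 RPM at E90 (interval 243 to 271), 779 copies or 174 RPM at day 0 (162 to 187) and 250 copies or 71.9 RPM at day 30 (63.3 to 81.4). The 3 libraries of day 180 held 1309, 598 and 443 copies, or 107, 57.3 and 49.1 RPM. At 7 years replicates 1 and 2 held 221 and 121 copies, or 35.4 and 32.5 RPM, and replicate 3 has no number.

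Both libraries of 7 years with a number were thus lower than every other library. The day 180 libraries averaged 71.1 ± 31.2 RPM (SD, n = 3), and the single library of day 30 stood inside their range. Their counting intervals, 101 to 113 in replicate 1, 52.8 to 62.1 in replicate 2 and 44.6 to 53.9 in replicate 3, show that replicate 1 differed from the others by more than counting error. The highest day 180 library exceeded the lowest 2.18-fold. Day 0 was 1.47-fold below E90 (ratio 0.679, exact interval 0.621 to 0.743), and day 30 was 2.42-fold below day 0 (ratio 0.413, interval 0.356 to 0.476). Both ratios exceed counting error, yet the first is smaller than the spread between day 180 replicates and the second only a little larger, and with 1 library per stage neither has a replicate check. In bulk tissue, fewer cells that hold a miRNA and less of it per cell cannot be told apart.

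**Figure D1:**
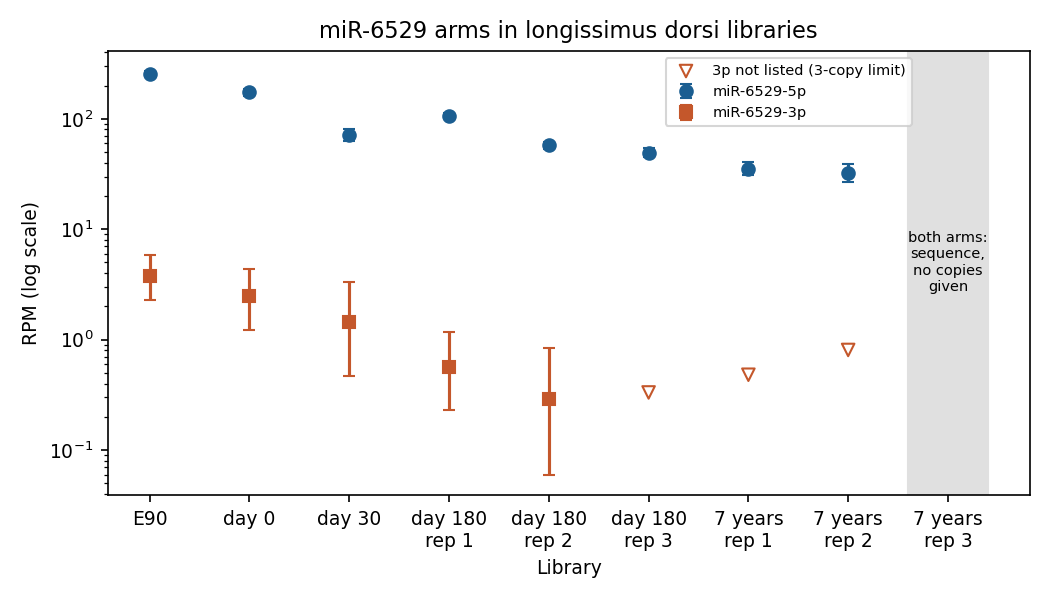
Level of both miR-6529 arms in each library, in RPM on a log axis, with exact 95% counting intervals; open triangles give the 3-copy limit where the 3p arm was not listed. The 5p arm goes from 257 RPM at E90 to 35.4 and 32.5 RPM in 7 years replicates 1 and 2, and the 3p arm stays below 4 RPM throughout; the grey band marks the library with sequences and no copy numbers.

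The place of the 5p arm among other miRNAs moved the other way. It held rank 5, 5 and 7 among conserved arms in the day 180 libraries and rank 4 and 5 in 7 years replicates 1 and 2, against rank 10 at E90, rank 10 at day 0 and rank 11 at day 30. With the putative new miRNAs counted, the ranks were 7, 8 and 10 at day 180 and 6 and 8 at 7 years, against 11, 12 and 15 at E90, day 0 and day 30. The ranks of the later and the earlier libraries do not overlap in either count. Adult ranks were part of how the arms were chosen, and other arms that separate likewise were not counted. Conserved arms with copies numbered 83, 78 and 67 at E90, day 0 and day 30, and 61, 54 and 48 at day 180. In 7 years replicates 1 and 2 they numbered 28 each. Rank 4 or 5 at 7 years is thus a place among 28 arms, and rank 10 at E90 a place among 83.

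As a share of all conserved copies the 5p arm made up 4.26%, 2.86% and 2.21% at day 180 and 2.24% and 2.48% in 7 years replicates 1 and 2. At E90 it made up 1.09%, at day 0 1.04% and at day 30 0.785%. Every later library with a number was above every earlier one, and how many other arms separated likewise was not counted. The conserved copies as a whole were the other part of this ratio, at 2509, 2003 and 2221 RPM at day 180 and 1581, 1312 and 1162 RPM at 7 years. In the early libraries they were at 23512 RPM (E90), 16747 RPM (day 0) and 9155 RPM (day 30). The name "abundant in adult libraries" holds for the rank and the share of miR-6529-5p among the listed conserved arms, and not for its level in RPM.

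**Figure D2:**
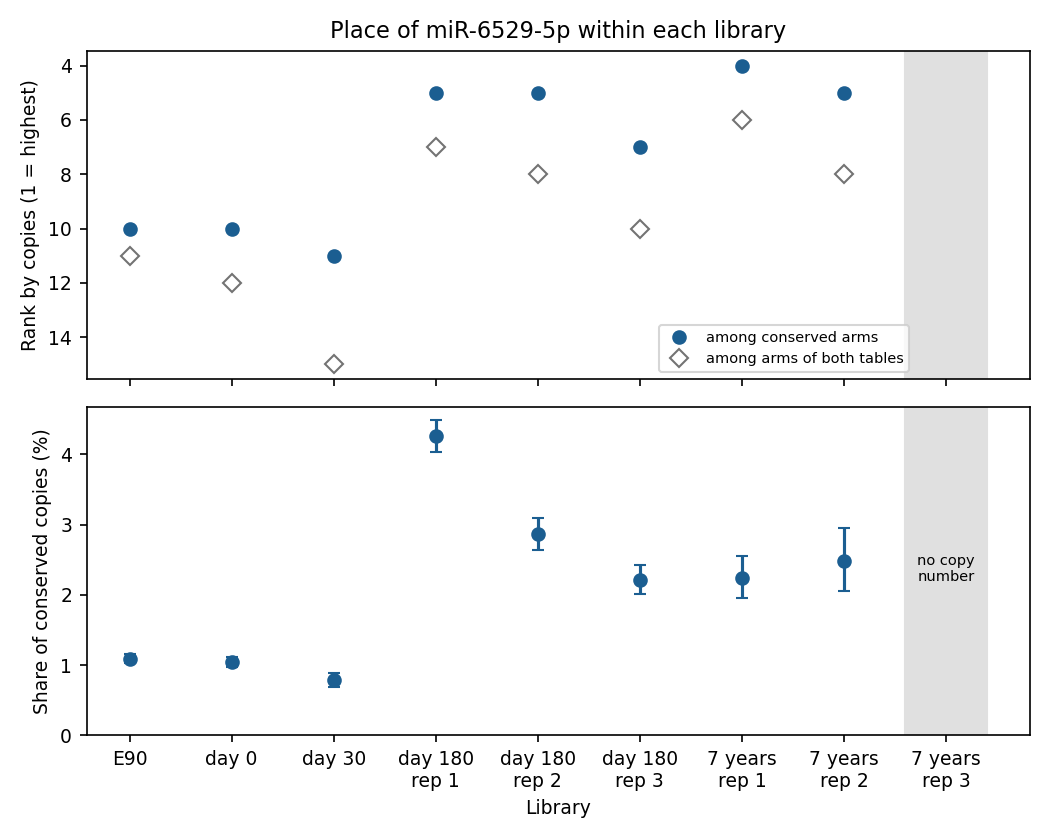
Rank of miR-6529-5p by copies (upper panel, 1 is the most abundant arm) and its share of conserved copies in percent with exact 95% intervals (lower panel), by library. The 5 later libraries with a number lie at ranks 4 to 7 and 2.21 to 4.26%, the 3 earlier ones at ranks 10 to 11 and 0.785 to 1.09%.

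The direction between early and later libraries depended on the scale. In RPM the 5p arm was at 32.5 to 107 in the 5 later libraries and at 71.9 to 257 in the 3 earlier ones, which overlap. After scaling by TMM, a factor that sets the bulk of the tested arms equal between libraries, it was at 71.5 to 117 in the later libraries and at 32.5 to 60.4 in the earlier ones, with no overlap and the later ones higher. Other arms that separate in this way on the TMM scale were not counted, so the separation is not shown to be particular to this arm. With DESeq2 size factors E90 was at 67.2 and the lowest later library, day 180 replicate 3, at 65.8. The largest TMM factor, 4.25 at E90, and the smallest, 0.375 in 7 years replicate 2, show how far apart the scales lie.

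Beside other conserved miRNAs the 5p arm had a higher ratio of day 180 to early libraries than most. Its mean over day 180 was 2.36-fold below the mean over E90, day 0 and day 30 (log2 ratio of mean RPM -1.24). The median of 38 other conserved arms listed in all 6 of these libraries was 7.23-fold lower (log2 ratio -2.85). Of these 38 arms, 27 had a lower ratio than miR-6529-5p and 11 a higher one, and 31 were below 0. Arms that dropped out of any of these libraries are not among the 38, so the comparison leaves out the arms that fell below listing. For 7 years replicates 1 and 2 over the early libraries the log2 ratio was -2.30, against a median of -2.86 over 23 other arms, of which 15 were lower. For 7 years over day 180 it was -1.06, against a median of -1.04 over 23 arms, of which 10 were lower. The first 2 ratios share their early libraries and the last 2 their libraries of 7 years, so they are set side by side only.

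**Figure D3:**
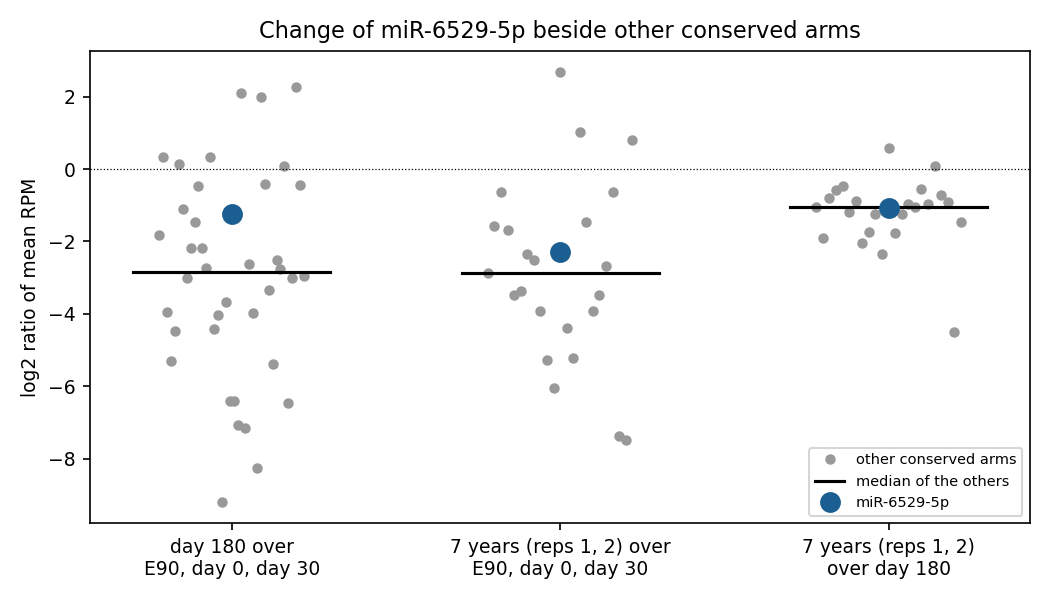
Log2 ratio of mean RPM for miR-6529-5p (large points) and for other conserved arms listed in every library compared (small points), with the median of the others as a bar. miR-6529-5p lies at -1.24 with a median of -2.85 for day 180 over the early libraries, at -2.30 with a median of -2.86 for 7 years over the early libraries, and at -1.06 with a median of -1.04 for 7 years over day 180.

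The miRNAs ranked around it show how its place moved. In all 3 early libraries 6 conserved arms were above it. Of these, miR-409-3p, miR-655-3p and miR-544-5p were below it in each of the 5 later libraries with a number. miR-409-3p and miR-655-3p belong to the imprinted miRNA cluster between DLK1 and DIO3, which is read from the maternal copy, as does miR-544. miR-655-3p was at 16.4, 16.3 and 15.96 RPM at day 180 and at 9.46, 7.79 and 8.63 RPM at 7 years, against 1994 RPM at E90, 1550 RPM at day 0 and 721 RPM at day 30. Only miR-26b-5p and miR-431-5p were above miR-6529-5p in all 8 libraries. miR-660-5p was above it in every library up to day 180 and below it at 7 years, with 4.17 and 4.84 RPM in replicates 1 and 2.

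miR-5105-3p was above miR-6529-5p in day 180 replicate 3 and 7 years replicate 2, and miR-716a-3p in day 180 replicate 3, and neither was in an early library. At day 180 the neighbours in mean level were miR-660-5p at 102 ± 34.8 RPM and miR-5105-3p at 61.8 ± 21.7 RPM (SD, n = 3 each), around 71.1 ± 31.2 for miR-6529-5p. Neither neighbour's mean differed from that of miR-6529-5p by more than 1 SD, which is a spread across libraries. Within libraries miR-660-5p was above it in all 3, at 138, 68.1 and 99.5 RPM. miR-5105-3p was below it in replicates 1 and 2 and above it in replicate 3, as said. At E90 the neighbours were miR-376d-3p at 261 RPM and miR-411c-3p at 246 RPM, both inside the counting interval of the 5p arm. At day 0 they were miR-376d-3p at 221 RPM and miR-590-3p at 123 RPM. At day 30 they were miR-411c-5p at 119 RPM and miR-1983-3p at 52.6 RPM. In 7 years replicates 1 and 2 miR-431-5p averaged 182 RPM and miR-5105-3p 31.4 RPM, with values of 16.7 and 46.2 RPM that enclose those of miR-6529-5p. By mean level at 7 years the 5p arm was thus well separated from the arm above it and not from the arm below. In replicate 2 alone, miR-5105-3p at 46.2 RPM was itself the arm just above it.

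Replicates existed at 7 years and day 180, and this comparison asks how the arm differs between aged and young adult muscle. In RPM the 5p arm was at 35.4 and 32.5 in 7 years replicates 1 and 2, against 107, 57.3 and 49.1 at day 180. The values do not overlap, and the mean was 2.09-fold lower at 7 years. With the missing number entered as 0, an exact permutation test (two-sided) gave p = 0.1, and 3 against 3 libraries can give no smaller one. The adjusted p was 0.25 over 5 relations in this exact test, those of the 5p level, the 3p level, their sum, their share of conserved copies and the balance of the arms. The summed level had the same p and adjusted p in the exact test. Without replicate 3 the exact p was 0.2. Of the 175 arms tested in both tables, 29.7% likewise had 7 years replicates 1 and 2 below all 3 libraries of day 180, and 1.71% had them above. With all 3 libraries of 7 years and empty cells as 0, these shares were 26.3% and 0.571%.

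Relative to the other miRNAs no difference of the 5p arm was called. In edgeR's quasi-likelihood test over all 9 libraries and 175 arms, with the missing number as 0, its log2 fold change was -0.69 (SE 1.73, edgeR adjusted p = 1). Without 7 years replicate 3 it was -0.09 (SE 0.30, edgeR adjusted p = 1), so the large error of the first value comes with the cell that has no number. Scaled by total reads and without that library it was -1.06 (SE 0.42, edgeR adjusted p = 0.212), an alternative chosen after seeing the data. The median log2 fold change over all tested arms was -1.23 in this fit and -0.32 in the TMM fit without that library. With all 9 libraries these medians were -0.99 on the scale of total reads and -0.10 with TMM. In the main comparison 3.43% of the arms were called at an adjusted p under 0.05, all of them lower at 7 years, and neither arm of miR-6529 was among them. As a share of conserved copies both arms made up 2.24% and 2.48% in 7 years replicates 1 and 2, against 3.12% ± 1.06 (SD, n = 3) at day 180. The exact permutation p of this share was 0.3 with the missing number as 0 (adjusted p = 0.4) and 0.5 without replicate 3. A p that misses the threshold does not show that the ages are alike.

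The 3p arm was rare at every stage. It had 19 copies or 3.77 RPM at E90 (interval 2.27 to 5.88), 11 copies or 2.46 RPM at day 0 (1.23 to 4.40) and 5 copies or 1.44 RPM at day 30 (0.467 to 3.36). At day 180 it had 7 copies or 0.571 RPM in replicate 1 and 3 copies or 0.287 RPM in replicate 2, and it was not listed in replicate 3. At 7 years it was not listed in replicates 1 and 2, and replicate 3 had a sequence and no number. Where it was listed it held ranks 37 to 54 among conserved arms.

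In RPM the early libraries were thus the higher ones, and both day 180 values lie below all of them. Their counting intervals, 0.230 to 1.18 and 0.0593 to 0.840, overlap that of day 30. With TMM scaling they were at 0.627 and 0.396, against 0.651 to 0.887 in the early libraries. With DESeq2 size factors replicate 1 was at 0.788, above day 0 at 0.547 and day 30 at 0.658, and replicate 2 at 0.455. A floor of 3 copies corresponds to 0.332 RPM in day 180 replicate 3 and to 0.481 and 0.806 RPM in 7 years replicates 1 and 2. The levels of day 180 are close to these floors, so a difference at 7 years was not detectable at this depth and no fold is given. edgeR did not call the arm for 7 years against day 180 (adjusted p = 0.657), with all 3 libraries of 7 years entered as 0. The arm passed the filter on low counts through its early libraries. The exact permutation p of its level was 0.4 (adjusted p = 0.4). With copies in day 180 replicates 1 and 2 alone, that test could give no other p. Neither of these p-values therefore bears on whether the arm differs between the ages.

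The balance between the arms was strongly towards 5p throughout. The 5p arm made up 98.6% of the copies of both arms at E90 (exact interval 97.7 to 99.1), 98.6% at day 0 (97.5 to 99.3) and 98.0% at day 30 (95.5 to 99.4). At day 180 it made up 99.5% in replicates 1 and 2 (98.9 to 99.8 and 98.5 to 99.9) and all 443 copies in replicate 3 (99.2 to 100). In 7 years replicates 1 and 2 it made up all 221 and all 121 copies (98.3 to 100 and 97.0 to 100). Counted as the share that 3 copies would make up, the limit on an unlisted 3p arm is 0.677% in day 180 replicate 3 and 1.36% and 2.48% in 7 years replicates 1 and 2. In copies, 68.1 of the 5p arm stood against 1 of the 3p arm at E90, 70.8 at day 0 and 50.0 at day 30, and 187 and 199 in day 180 replicates 1 and 2.

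Pooled over libraries, the 3p arm was 10 of 2702 copies or 0.370% in the 5 later libraries with a number (exact interval 0.178 to 0.680), against 35 of 2358 or 1.48% in the 3 early ones (1.04 to 2.06). The intervals do not overlap, and they cover counting error of the pooled copies and not the spread between pigs. Between single libraries of these groups the intervals overlap in every pair but day 180 replicate 3 and E90. The 5p share of 7 years and day 180 had an exact permutation p of 0.4 for 2 libraries against 3 (adjusted p = 0.4). Both libraries of 7 years entered at 100% because the 3p arm was unlisted. Their 3-copy limits, 1.36% and 2.48%, lie above the 3p shares of 0.532% and 0.499% in day 180 replicates 1 and 2. That p therefore does not bear on whether the balance differs between the ages. An unlisted arm may also stand for 1 or 2 copies that were left out of the table.

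**Figure D4:**
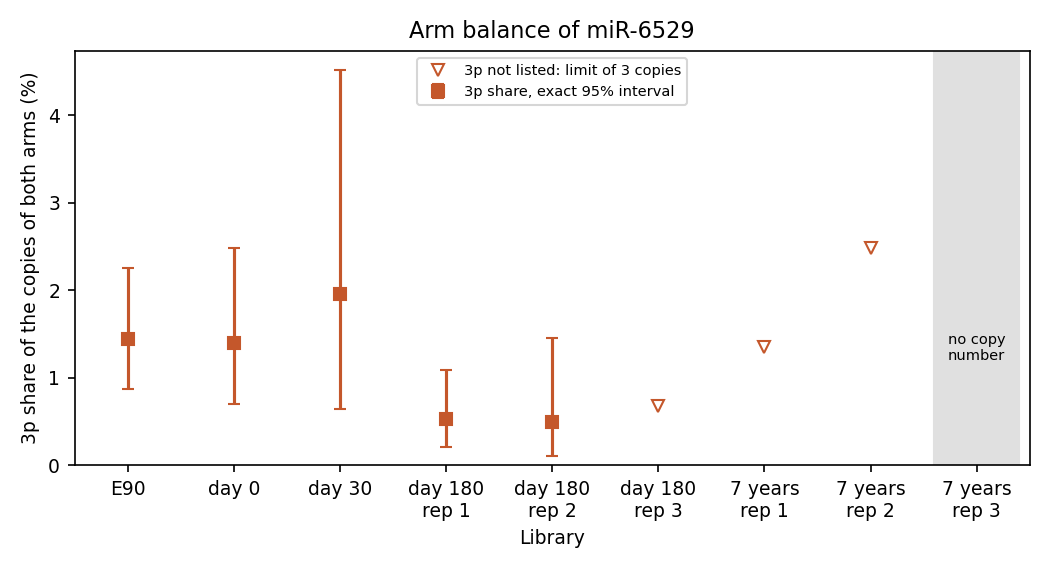
Share of the 3p arm in the copies of both miR-6529 arms, in percent, with exact 95% intervals; open triangles give the share that 3 copies would make up where the 3p arm was not listed. The 3 early libraries lie at 1.39 to 1.96% and day 180 replicates 1 and 2 at 0.532 and 0.499%, with overlapping intervals.

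Other conserved precursors were mostly less one-sided. Of 30 precursors with both arms in the table, 23 others had both arms listed at E90 and at day 0 and 20 at day 30. Their more abundant arm had a median share of 82.8% at E90, 84.9% at day 0 and 93.3% at day 30. In day 180 replicates 1 and 2, 15 and 14 others had both arms listed, with medians of 91.5% and 85.0%. More one-sided than miR-6529 were 5 of the 23 at E90, 5 of the 23 at day 0, 7 of the 20 at day 30, and 2 in each of these day 180 libraries. Precursors whose minor arm was not listed are left out of these counts.

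Arms with late numbers in the naming of miRNAs were mostly rare. Besides miR-6529, 18 conserved arms carry a number of 1000 or more. Those listed had a median of 1.71, 1.77 and 3.21 RPM at day 180 and 1.12, 2.55 and 1.81 RPM at 7 years, against 2.58 at E90, 3.36 at day 0 and 4.03 at day 30. None of the 18 exceeded miR-6529-5p in 6 of the 8 libraries, and 1 did in day 180 replicate 3 and in 7 years replicate 2. Of the 22 other arms with a single listed counterpart, none exceeded it in the same 6 libraries. In day 180 replicate 3, 2 did, and in 7 years replicate 2, 1 did.

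The conserved arms whose RPM followed the summed miR-6529 level most closely over the 8 libraries were miR-655-3p and miR-544-5p (Spearman's rho 0.976 each), then miR-376b-3p and miR-454-3p (0.952 each). The median over the 40 arms listed in at least 6 libraries was 0.806, since most arms were higher in the early libraries, so these values describe a shared order of libraries. miR-544-5p was at 510 RPM at E90, 256 RPM at day 0 and 152 RPM at day 30. It was at 70.8, 50.3 and 38.9 RPM at day 180 and at 33.8, 20.7 and 25.1 RPM at 7 years. It stood above miR-6529-5p in the early libraries and below it in the 5 later libraries with a number. The 3p arm followed the 5p arm over the same 8 libraries with a rho of 0.952, unlisted cells counted as 0.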

How the data were processed

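Per the labels, small RNA of 10 to 40 nt was cut from a polyacrylamide gel and read on an Illumina instrument. The deposited counts are whole copies of each miRNA arm per library, with the most abundant sequence and the high-quality reads of each library, per the file headers. The sources used here give no aligner, miRNA caller or filter. Members and lists were chosen with earlier results of these data known.

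RPM used the header reads as library size. Empty cells, among them the 2 cells of miR-6529 with a sequence and no number, entered tests as 0. Putative new arms with equal sequence and values were merged (426 to 395). edgeR 4.0.16 in R 4.3.3 used TMM, filterByExpr (minimum count 10, minimum total 15), a term per stage, robust quasi-likelihood fits and Benjamini-Hochberg adjustment over 175 arms. Exact permutation tests and intervals used scipy 1.17.1 and Python 3.11.15, folding ViennaRNA 2.7.2, and DESeq2 1.42.0 was an alternative. Named miRNAs were the members, arms next to the 5p arm in rank and the 3 most correlated arms over 8 libraries, where 9 had been planned, with ties named. Arms that changed sides with miR-6529-5p in rank were added after their values were seen. Scripts were tested on simulated data.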

Additional observations from a re-analysis of the deposited data

How the results depend on the processing

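For 7 years against day 180 neither arm was called under any alternative run. The log2 fold change of miR-6529-5p stayed below 0 in 16 alternatives, from -1.73 to -0.09 (edgeR adjusted p 0.212 to 1; DESeq2's Wald test -0.93, adjusted p = 0.865), and without 1 library each it was -1.17 to -0.09. All of these fits except those without 7 years replicate 3 entered its missing number as 0 or 2 copies. That sets it below replicates 1 and 2, so the shared sign of the fits is no check on the direction. Fits without that library gave -0.09 (SE 0.30) with TMM and -1.06 (SE 0.42) by total reads. The log2 fold change of miR-6529-3p depends on what stands in its empty cells and is no measure of size. It was below 0 with them at 0 and turned to 0.074 (edgeR adjusted p = 0.989) with them set to 2 copies. With such cells the 5p share of both arms turned from 0.344 to -17.0 percentage points (7 years minus day 180), since the setting enters 2 copies for each arm in 7 years replicate 3. The 3p arm was removed by the stricter filter and in fits of the 6 later libraries alone. Calls over all arms numbered 6 of 175 (22 at an unadjusted p under 0.05). They numbered 14 with total reads, 10 with DESeq2's Wald test, 11 with a stricter filter, 17 with conserved arms alone, 2 with the 6 later libraries alone, and 2 to 8 without 1 library each, with 2 without day 180 replicate 1, day 180 replicate 3 or 7 years replicate 2. With the missing number of 7 years replicate 3 as 0, the difference in RPM of miR-6529-5p was -48.4. It ranged from -59.4 to -30.6 without 1 library each, and was -37.1 without that replicate, which leaves the 0 out. Its exact p was 0.6 with library sizes multiplied by TMM factors, where the difference was -33.8, again with that 0. On this scale 7 years replicates 1 and 2 stood at 79.4 and 86.8, against a day 180 mean of 89.2.

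Replicate numbers are shared by day 180 and 7 years, and no label says what they mean. Same-numbered libraries deviated from their stage means with correlations of 0.00274, -0.183 and -0.208. Differently numbered ones had correlations of -0.128 to 0.261. With 3 libraries per stage, these values cannot show whether equal numbers stand for something shared. With the replicate block 1 arm was called and miR-6529-5p had a log2 fold change of -1.73 (edgeR adjusted p = 0.762). No paired analysis was possible for the 5p share because 1 library of 7 years has no number. Depth limits the 3p arm most, with at most 19 copies in a library.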

Other observations

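The third conserved cell with a sequence and no copy number belonged to miR-449b-5p at E90. The putative new table had no such cell.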
